A study of Mus musculus with 3 samples.

Results

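Adipocyte nuclei were 74 of 20733 nuclei in 3 single-nucleus RNA libraries from mouse heart, and 71 of the 74 came from 1 library, that of the infarcted heart given NS. A nucleus counted as an adipocyte nucleus if it held at least 3 unique molecular identifiers (UMIs, each a distinct captured RNA molecule) summed over Adipoq, Plin1, Cidec, Adrb3, Plin4 and Lep, from at least 2 of these 6 genes. It also had to hold at most 1 UMI over the myeloid and endothelial genes Csf1r, Ptprc, Pecam1 and Cdh5, and under 3% of its UMIs in the cardiomyocyte transcripts Ttn, Ryr2, Myh6 and Mhrt. The class was thus chosen by its own RNA, so its levels of those genes are a description and its contrast with other nuclei carries no test.

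The study sampled hearts 2 weeks after surgery, with 1 library per group and no replicate. Sham-operated mice received NS (the Sham-NS group), and infarcted mice received either NS (MI-NS) or dapagliflozin (MI-DAPA), a drug that blocks the renal sodium-glucose cotransporter SGLT2. All hearts had thus been through surgery, and only the MI groups had an infarct. The labels expand neither NS nor the strain, sex or number of animals behind a library. Nuclei that passed the filters numbered 8296 (Sham-NS), 7065 (MI-NS) and 5372 (MI-DAPA) at median depths of 790, 851 and 831 UMIs, and their median mitochondrial shares were 3.32%, 1.48% and 2.42%. Between 13 and 20 barcodes were shared by any pair of libraries, and none of them belonged to an adipocyte nucleus. All intervals below are 95% intervals for counting error only, and without replicates no p-value can be given.

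Adipocytes store fatty acids as triglyceride in a large lipid droplet coated by perilipins, and release them again through adrenergic signalling and lipolysis. Mature fat cells are specified by the nuclear receptor PPARgamma together with C/EBP factors, and secrete adiponectin, leptin, adipsin and resistin. Around the heart, fat lies along the coronary vessels under the epicardium and outside the pericardium. Brown and beige fat cells, which burn lipid for heat, are marked by the uncoupling protein Ucp1.

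The first comparison asked how adipocyte nuclei were shared out over the groups. They made up 1.00% of the kept MI-NS nuclei (71 of 7065, Clopper-Pearson interval 0.786% to 1.27%), 0.0241% of Sham-NS nuclei (2 of 8296, 0.00292% to 0.0871%) and 0.0186% of MI-DAPA nuclei (1 of 5372, 0.000471% to 0.104%). The MI-NS interval did not overlap those of the other libraries, which overlapped each other. With every nucleus thinned to 500 UMIs the MI-NS share was 0.609%, and with at least 5 rule UMIs no nucleus of Sham-NS or MI-DAPA passed. Over all kept nuclei of a library, MI-NS was also the highest for genes outside the rule that were high in its adipocyte nuclei. Car3, a carbonic anhydrase abundant in fat, had 23 Sham-NS, 1003 MI-NS and 17 MI-DAPA UMIs. On the CPM scale, which divides by all UMIs of the sum and so allows for depth, these were 2.19, 114 and 2.29. The counts of Slc7a10, a neutral amino acid transporter of white fat, were 6, 400 and 4 UMIs, and those of Cfd, which encodes the secreted protease adipsin, were 2, 280 and 0. Lgals12, a lectin of the lipid droplet, had 4, 199 and 0 UMIs. These genes were named because they were high in MI-NS adipocyte nuclei, so their high MI-NS totals follow in part from that choice.

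Not every fat gene stood so far apart in MI-NS. Pparg had 110 Sham-NS, 93 MI-NS and 51 MI-DAPA UMIs, or 10.5, 10.6 and 6.86 CPM. Of its MI-NS UMIs, 29 lay in adipocyte nuclei. Lpl, which encodes lipoprotein lipase, had 2934, 2269 and 2200 UMIs, or 280, 258 and 296 CPM, and so was lowest in MI-NS. Lipe, the gene of hormone-sensitive lipase, was highest in MI-NS but by less than the genes above, at 69.4, 119 and 64.1 CPM. Mesothelial-like nuclei, named from markers of the cell layer that covers the heart, were also most frequent in MI-NS. They numbered 5 of the kept Sham-NS nuclei (0.0603%), 24 of MI-NS (0.340%) and 3 of MI-DAPA (0.0558%). Their part in the result was not tested, and with 1 library per group the surgery and the treatment cannot be told apart from the library or the piece of tissue it was made from.

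**Figure D1:**
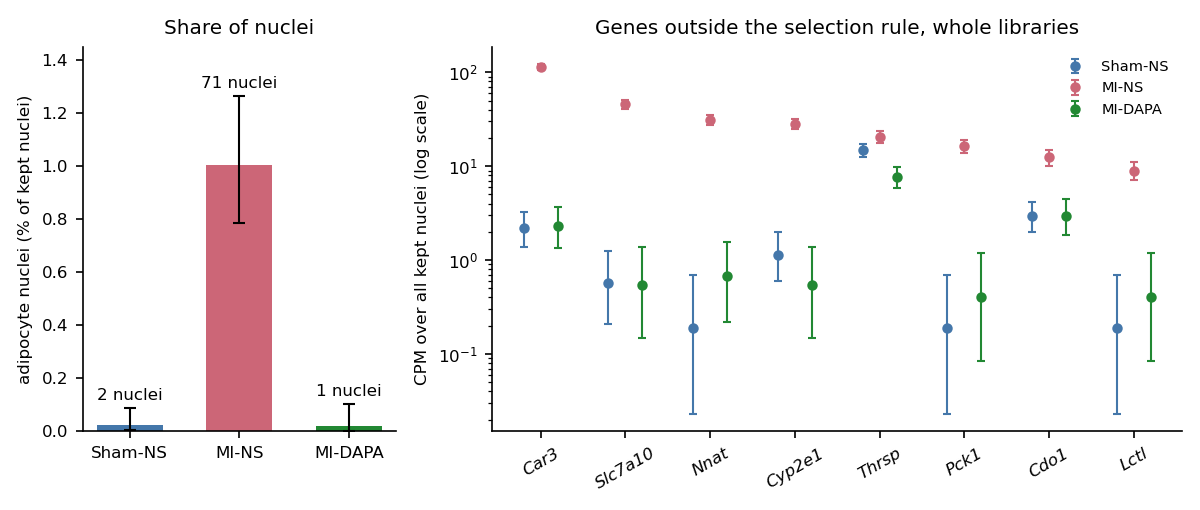
Left, adipocyte nuclei as a percentage of kept nuclei in each library, with the number of nuclei and Clopper-Pearson intervals. Right, CPM over all kept nuclei (log axis) of 8 genes outside the rule, with exact Poisson intervals. These genes were picked from the 20 with the highest ratios in MI-NS adipocyte nuclei. Of those with UMIs in every library, they had the highest MI-NS CPM. The MI-NS bar stands at 1.00%, and Sham-NS and MI-DAPA stand at 0.0241% and 0.0186%.

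The 3 adipocyte nuclei outside MI-NS held 3 or 4 rule UMIs each. The first Sham-NS nucleus (1456 UMIs) passed with 1 UMI each of Plin1, Cidec and Plin4, held 1 UMI of Car3 and also 6 UMIs of fibroblast markers. The second (1906 UMIs) held 2 UMIs each of Cidec and Plin4, with 5 of Car3, 4 of Lipe and 3 of Slc7a10. In MI-DAPA the single nucleus (823 UMIs) held 2 UMIs each of Adipoq and Plin4, with 3 of Car3, 3 of Lipe and 2 of Slc7a10. Over the 20 genes with the highest ratios in MI-NS adipocyte nuclei, these 3 nuclei held 13, 29 and 16 UMIs in that order. A single UMI was worth 297 CPM in the Sham-NS sum and 1215 CPM in the MI-DAPA sum, so gene levels in adipocyte nuclei were not compared between libraries. The remaining results describe the 71 nuclei of MI-NS.

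Among those 71 nuclei the rule genes were unevenly caught. Plin4, a perilipin, gave 372 UMIs in 66 nuclei, and Plin1, the perilipin of the adipocyte droplet, 219 in 63. Adrb3, the beta-3 adrenergic receptor of fat, gave 235 UMIs in 52 nuclei. Cidec, a droplet fusion protein, was seen in 33 nuclei with 63 UMIs, and Adipoq, the adiponectin gene, in 30 nuclei with 41 UMIs. Leptin (Lep) had 2 UMIs in 2 nuclei. A nucleus held between 3 and 74 UMIs of these genes with a median of 11, and 13, 23, 24 and 11 nuclei held 2, 3, 4 and 5 of the 6 genes. Plin4 alone is not specific to fat in this tissue, since Sham-NS held 3119 UMIs of it with only 3 in adipocyte nuclei.

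At the threshold, the 3 nuclei with exactly 3 rule UMIs held 17 UMIs of Car3, or 5456 CPM (3178 to 8735). The 7 nuclei just outside it, with 2 UMIs from 2 rule genes, held 9 UMIs of Car3, or 424 CPM (194 to 805). Other nuclei near the rule held more. In 10 nuclei with 2 UMIs from 1 rule gene Car3 stood at 1124 CPM (642 to 1825), from 16 UMIs in 2 nuclei. It was 1191 CPM (634 to 2037) in 3 nuclei with at least 3 UMIs from 1 gene. In 6 nuclei with enough rule UMIs but at least 3% cardiomyocyte UMIs it was 772 CPM (432 to 1273). Car3 was itself chosen as high in the class. Car3 stood at 11.6 CPM in the 121 nuclei with 1 rule UMI and at 10.7 CPM in the 5637 with none. A further 9 nuclei met the rule but for the myeloid and endothelial limit, and held Car3 at 3553 CPM.

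Several class features were recorded beside these. Adipocyte nuclei had a median of 1641 UMIs (505 to 5612) against 868 in fibroblast-like nuclei, and a median mitochondrial share of 0.933%. All 8 fibroblast markers were seen in them, at 2235 CPM in sum against 11127 CPM in fibroblast-like nuclei, 2227 in mesothelial-like and 665 in endothelial-like nuclei. Cardiomyocyte markers summed to 1016 CPM in adipocyte nuclei, where Mhrt was at 0, against 1492 in fibroblast-like nuclei. Endothelial markers had 44 UMIs, mesothelial markers 40, mural markers 22 and macrophage markers 21. Skeletal muscle markers had 21, with the myosin genes Myh1, Myh2 and Myh4 at 0. The rule itself limited Pecam1 and Cdh5 among the endothelial markers, Csf1r and Ptprc among the macrophage markers, and all cardiomyocyte markers. The endothelial, macrophage and cardiomyocyte sums were thus in part set by the selection. Some sums lay in few nuclei: 35 of the mesothelial UMIs in 5, and 29 of the endothelial UMIs in 6. For macrophage markers, nuclei with at least 3 UMIs held only 8 of the 21. Mesothelial markers summed to 301 CPM, against 183 in fibroblast-like and 14432 in mesothelial-like nuclei. The median doublet score was 0.0382, against 0.0448 in fibroblast-like nuclei and 0.0348 over all nuclei.

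The classes used for comparison were themselves set by marker rules and are written as -like: 2398 fibroblast-like, 549 endothelial-like, 1147 cardiomyocyte-like and 24 mesothelial-like nuclei. A gene was counted as higher or lower if the CPM of the summed UMIs differed at least 4-fold after 0.5 UMI was added to each sum. Against all other MI-NS nuclei, 678 of 13670 measurable genes (4.96%) were higher in adipocyte nuclei and 802 (5.87%) lower, with a median log2 ratio over all genes of 0.042. The adipocyte sum was 132900 UMIs, far smaller than that of the other nuclei, so a gene absent from it was below 22.6 CPM (3 UMIs) rather than known to be absent. The lower count depends on this: with 1 UMI added in place of 0.5 it was 308, and with UMIs added in proportion to the totals, a setting chosen after seeing the data, 3233. For the list genes at 0 UMIs that are counted as lower than all other nuclei (Gpihbp1, Lmf1, Dio2, Pank1, Fgf1, Adrb1, Dpp4, Ccl2 and Tlr4), the count rests on the 0.5 UMI added. Set to the floor, none of these 9 was 4-fold lower than all other nuclei, and Lmf1, Dio2, Dpp4 and Ccl2 were under the floor in the other nuclei too.

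The 20 genes with the highest ratios included enzymes, transporters, receptors and secreted proteins. Pck1, the phosphoenolpyruvate carboxykinase that makes glycerol phosphate for triglyceride in fat, had 117 UMIs in 40 adipocyte nuclei and 26 in all other nuclei, a log2 ratio of 8.17 (7.57 to 8.87). Car3 had 758 UMIs in 69 nuclei against 245 elsewhere, or 5704 CPM (5305 to 6124) against 28.3 CPM, a log2 ratio of 7.65 (7.45 to 7.87). At 97.2% of adipocyte nuclei (85.9% after each nucleus was thinned to 500 UMIs), Car3 was detected far more often than in fibroblast-like (1.00%), endothelial-like (0.911%) and cardiomyocyte-like nuclei (1.31%). The cytochrome P450 gene Cyp2e1 had 188 UMIs in 49 nuclei against 60 elsewhere, and Lgals12 had 151 in 60 against 48, each with a log2 ratio of 7.67.

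Further genes of this group were transporters, receptors and secreted proteins. Slc7a10 had 263 UMIs in 65 nuclei and a log2 ratio of 6.96 (6.66 to 7.28), and it was seen in 91.5% of adipocyte nuclei (49.3% thinned) against 0.834% of fibroblast-like nuclei. Cfd had 184 UMIs in 52 nuclei, also at a log2 ratio of 6.96. Acvr1c, the receptor ALK7 that restrains lipolysis, had 79 UMIs in 41 nuclei and a log2 ratio of 7.07. Sctr, the secretin receptor, had 38 UMIs in 27 nuclei against 12 elsewhere. Resistin (Retn) had 20 UMIs in 16 nuclei, and Hp, the haptoglobin gene, 58 in 24. Thrsp, a nuclear regulator of lipogenesis, and Cdo1, a cysteine dioxygenase, had log2 ratios of 6.46 and 6.11. The other genes of the 20 were Tenm4, Glb1l2, Ankef1, Nnat, Lctl, Klhdc7a, Chrdl1 and Prkar2b, with ratios from 6.07 (Prkar2b, a regulatory subunit of protein kinase A) to 7.77 (Tenm4).

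**Figure D2:**
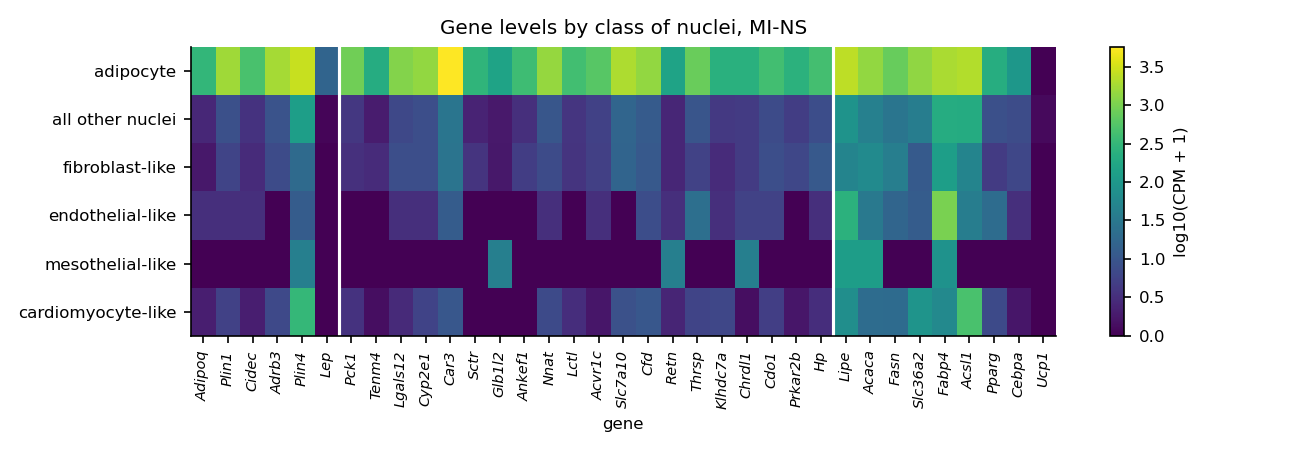
Each column is a gene and each row a class of MI-NS nuclei; colour gives log10 of CPM plus 1. From left to right stand the 6 rule genes, the 20 genes with the highest ratios and 9 further fat genes; Car3 reaches 5704 CPM in the adipocyte row and 28.3 CPM in the row of all other nuclei, and Ucp1 is at 0 in adipocyte nuclei.

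Promoters of the 6 rule genes and these 20 genes were read for the binding motifs of the fat cell regulators, since C/EBP factors and PPARgamma are both known at genes of this kind. RefSeq promoter windows, 250 bases upstream of each start on build GRCm38.p6, were found for 18 of the 26 genes. The C/EBP letters TTGCNNAA, searched on both strands, occurred in 4 of the 18 (Plin1, Cidec, Lep and Klhdc7a) and in 10.8% of the 27025 genes in the table. The PPAR direct repeat, here 2 copies of AGGNCA with 1 free base between them, occurred in 1 of the 18 (Lctl), and in 0.400% of all genes. The following 80-base stretches are shown on the strand of the gene with the matching letters in capitals. They come from chr7:79732791-79732870 (minus strand, Plin1), chr6:113434919-113434998 (minus strand, Cidec) and chr9:64117067-64117146 (plus strand, Lctl), and the Lctl match reads on the opposite strand.
Plin1: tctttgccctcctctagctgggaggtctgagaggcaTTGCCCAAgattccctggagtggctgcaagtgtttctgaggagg
Cidec: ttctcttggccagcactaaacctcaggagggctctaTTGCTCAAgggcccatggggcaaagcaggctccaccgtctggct
Lctl: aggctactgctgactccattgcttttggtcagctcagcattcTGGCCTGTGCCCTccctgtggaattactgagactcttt
The Plin1 match shown begins 58 bases upstream of the RefSeq start, the Cidec match 198 and the Lctl match 38, and a further Plin1 match, not shown, begins 187 bases upstream. In the GENCODE annotation Plin1 ends at 79732903 and Cidec at 113435760 on the minus strand, so both stretches shown for them lie within the annotated genes. A match is a description of the letters and not a measured site of binding.

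Most measurable genes of triglyceride breakdown were above the other nuclei, the exception being the lysosomal lipase gene Lipa, with 2 UMIs and a log2 ratio of -0.93 (-4.30 to 0.62). Of 14 lipolysis genes, 11 were measurable and 7 were at least 4-fold higher with none lower, at a median log2 ratio of 3.32 against 0.042 over all genes. Lipe had 321 UMIs in 69 of the 71 nuclei, or 2415 CPM (2158 to 2695), against 83.7 CPM in the other nuclei, a log2 ratio of 4.85 (4.66 to 5.04). Pnpla2, the gene of adipose triglyceride lipase, had 451 CPM (345 to 581) against 59.7 CPM. Its coactivator Abhd5 and its inhibitor G0s2 were both higher, with log2 ratios of 3.32 and 3.83. Pde3b, the phosphodiesterase through which insulin restrains lipolysis, had 76 UMIs in 43 nuclei and a log2 ratio of 4.75, while Mgll, which splits monoglycerides, stood at 1.52 and below its level in endothelial-like nuclei (203 against 287 CPM).

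Most fat-making genes were above the other nuclei as well. Of 13 triglyceride synthesis genes, 7 of the 11 measurable were at least 4-fold higher and none lower, with a median of 3.21. Gpd1, which makes glycerol phosphate from glucose, had 89 UMIs in 40 nuclei (log2 ratio 5.27), and the final enzymes Dgat1 and Dgat2 had 117 and 52 UMIs (3.60 and 4.01). The glycerol kinase gene Gk had 4 UMIs and a log2 ratio of -1.20 (-3.25 to -0.0029). All 16 genes of de novo lipogenesis had a positive ratio and 9 were at least 4-fold higher, with a median of 2.53. Acaca, the acetyl-CoA carboxylase of lipid synthesis, had 1384 CPM (1192 to 1600) against 41.8 CPM, and the fatty acid synthase Fasn 752 against 27.8 CPM. Mlxipl, which encodes the glucose-sensing factor ChREBP, had 181 UMIs in 59 nuclei and Srebf1, the insulin-responsive factor, 77 in 35. Acly, which supplies acetyl-CoA from citrate, was close to the other nuclei at 0.67 (-0.35 to 1.43).

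**Figure D3:**
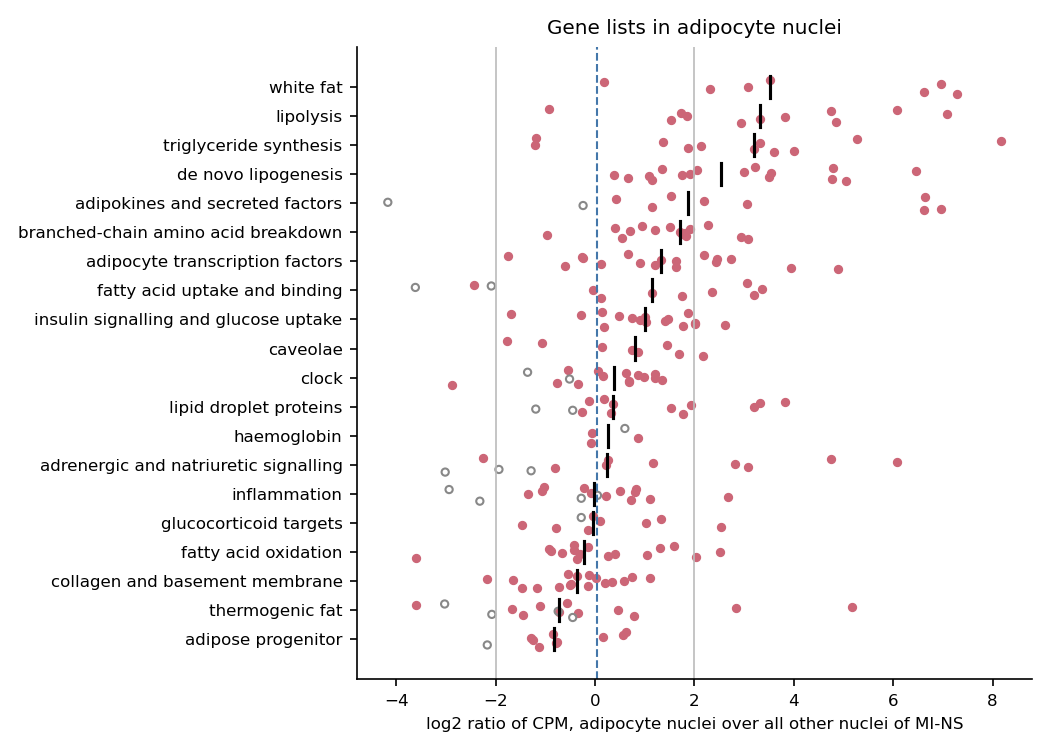
Each point is a measurable gene and its log2 ratio of CPM in adipocyte over all other MI-NS nuclei, by gene list; open points had 0 UMIs in adipocyte nuclei, black bars are list medians, the dashed line is the median of all genes and grey lines mark 4-fold. Lipolysis (3.32) and triglyceride synthesis (3.21) have medians far right of the dashed line at 0.042.

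Genes of fatty acid uptake were split. Among 12 genes, 11 were measurable, 4 at least 4-fold higher and 3 lower, with a median of 1.14. Acsl1, which activates fatty acids, had 278 UMIs in 56 nuclei and Slc27a1, a fatty acid transporter, 174 in 63. Fabp4, the adipocyte fatty acid binding protein, stood at 1904 CPM (1676 to 2153) and was also prominent in endothelial-like nuclei at 984 CPM. Lpl reached 835 CPM against 413 in cardiomyocyte-like nuclei. Cd36, the fatty acid translocase, had 120 CPM (68.8 to 196), close to the 113 CPM of cardiomyocyte-like nuclei and below the 385 CPM of endothelial-like nuclei. Gpihbp1, which anchors lipoprotein lipase on capillaries, had 0 UMIs and was at least 11.5-fold lower than in endothelial-like nuclei. Vldlr had 7 UMIs against 851 CPM in cardiomyocyte-like nuclei.

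Genes of fatty acid burning did not stand out. Of 16 oxidation genes 2 were at least 4-fold higher and 1 lower against all other nuclei, with a median of -0.22, which became 0.59 against only those nuclei with under 3% cardiomyocyte UMIs. Against cardiomyocyte-like nuclei, where 9.44% of 9859 genes were higher and 6.91% lower, 15 were measurable, 1 was higher and 2 were lower, with a median of -0.81 against 0.51 over all genes. Cpt1b, the muscle form of the enzyme that admits fatty acids to mitochondria, had 4 UMIs in adipocyte nuclei against 1127 CPM in cardiomyocyte-like nuclei. Cpt2, which completes that entry on the inner membrane, had 12 UMIs and a log2 ratio of 2.04 to all other nuclei.

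**Figure D4:**
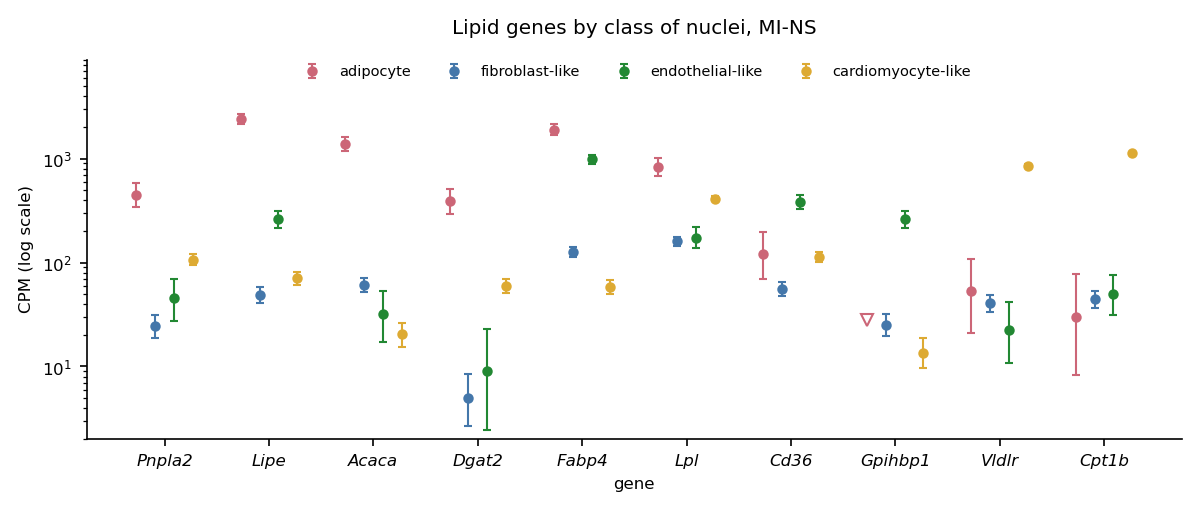
CPM (log axis) of 10 lipid genes in adipocyte, fibroblast-like, endothelial-like and cardiomyocyte-like nuclei of MI-NS, with exact Poisson intervals; open triangles mark the upper interval bound of a class with 0 UMIs. Lipe stands at 2415 CPM in adipocyte nuclei, whereas Cpt1b is highest in cardiomyocyte-like nuclei at 1127 CPM.

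Against all other nuclei the droplet and membrane lists were more mixed. Among the droplet proteins outside the rule, 13 of 14 were measurable and 3 were at least 4-fold higher (Bscl2, Abhd5 and G0s2). The list median was 0.37, or 1.53 with genes at 0 UMIs set to the floor of 3 UMIs. It was 2.23 against fibroblast-like nuclei (9 measurable), 2.53 against endothelial-like (5) and 0.50 against cardiomyocyte-like nuclei (12). Over all genes these medians were -0.095, -0.23 and 0.51. Bscl2, the seipin of droplet formation, had 55 UMIs in 36 nuclei and a log2 ratio of 3.20, whereas Plin2, Plin3 and Plin5 had 12, 10 and 2 UMIs. Of the 8 caveola genes, which shape the membrane pits abundant in fat cells and endothelium, only Cav1 was at least 4-fold higher (2.18). Against endothelial-like nuclei, where 4.90% of 5919 genes were higher and 9.46% lower, none of 7 measurable caveola genes was 4-fold apart, with a median of -0.23.

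Transcription factors of fat cell identity were present at low counts. Pparg had 29 UMIs in 20 nuclei, or 218 CPM (146 to 313) against 7.39 CPM in the other nuclei, and Cebpa 13 UMIs in 12 nuclei. A Pparg UMI was seen in 28.2% of adipocyte nuclei (11.3% thinned), 0.292% of fibroblast-like and 1.64% of endothelial-like nuclei. Of the 17 factors, 6 were at least 4-fold higher and none lower, with a median of 1.32, the others being Klf15, Nr1h3, Stat5a and Gata3, of which Gata3 rested on 1 UMI. Ebf1, an early factor of the lineage, had 632 CPM against 455 CPM in fibroblast-like nuclei.

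White fat genes stood high against all other nuclei, while the thermogenic list as a whole did not. Of the 12 white fat genes 7 were measurable and 6 at least 4-fold higher (Nnat, Slc7a10, Retn, Psat1, Npr3 and Nrip1), with a median of 3.51 (2.12 without the nuclei that held Nnat), and Hoxc8, Hoxc9, Hoxc10 and Agt had 0 UMIs. Of the 23 thermogenic genes 15 were measurable, 2 higher (Slc36a2 and Ntrk3) and 3 lower (Cpt1b, and Dio2 and Pank1 at 0 UMIs). The thermogenic median was -0.73, or -0.35 with genes at 0 set to the floor. It was -0.32 against only those nuclei with under 3% cardiomyocyte UMIs, where the median over all genes was -0.16. Against fibroblast-like nuclei it was -0.0082 on 10 measurable genes (-0.095 over all genes). Against endothelial-like nuclei it was -0.48 on 4 (-0.23 over all genes), and against cardiomyocyte-like nuclei -1.53 on 12 (0.51 over all genes). Ucp1 was seen in 0 of 71 adipocyte nuclei, which allows up to 4.23% of nuclei with a UMI (3 of 71) and sets no limit on nuclei that express it. It had 2 UMIs in all other MI-NS nuclei. Cidea and Dio2 had 0 UMIs as well, against 5.08 and 15.8 CPM in the other nuclei, both below the floor of 22.6 CPM, so no lower level was shown for either. Slc36a2, an amino acid transporter listed as a brown fat marker, was high, with 179 UMIs in 58 nuclei and a log2 ratio of 5.17 (4.89 to 5.43). It was found in 81.7% of adipocyte nuclei (49.3% thinned) and in 15.9% of cardiomyocyte-like nuclei (4.62% thinned). Ppargc1a, the coactivator of mitochondrial biogenesis, had 15 UMIs, or 113 CPM (63.2 to 186) against 191 CPM in cardiomyocyte-like nuclei. A Ppargc1a UMI was seen in 18.3% of adipocyte nuclei (9.86% thinned) and 33.9% of cardiomyocyte-like nuclei (9.59% thinned). In fibroblast-like and endothelial-like nuclei the shares were 0.709% and 0.546% (0.542% and 0.364% thinned).

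Secreted and hormone-response genes gave a selective picture. Of the 15 secreted factors 10 were measurable, 5 at least 4-fold higher and 1 lower, with a median of 1.86, or 2.28 with genes at 0 set to the floor. Besides Cfd and Retn the higher ones were Nrg4 (17 UMIs against 11 elsewhere), the lipase inhibitor Angptl4 (35 UMIs, log2 ratio 3.05) and the growth factor gene Igf1 (35 UMIs in 28 nuclei). Rbp4, the retinol carrier, had 9 UMIs against 6 elsewhere, too few to be measurable. Vegfa stood at 2536 CPM (2272 to 2821) against 500 CPM in fibroblast-like and 4852 CPM in cardiomyocyte-like nuclei. Fgf1 had 0 UMIs, at least 6.71-fold below cardiomyocyte-like nuclei.

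Insulin signalling genes were a little above the other nuclei. Of 16 genes 3 were at least 4-fold higher (Irs2, Pik3r1 and Akt2) and none lower, with a median of 1.01. Against fibroblast-like nuclei, where 3.65% of 11076 genes were higher and 6.95% lower, 7 of the 15 measurable were higher, with a median of 1.90. The insulin-responsive glucose transporter Slc2a4 had 113 CPM (63.2 to 186), above the 7.65 CPM of fibroblast-like nuclei and close to the 111 CPM of cardiomyocyte-like nuclei. Insr, the insulin receptor, differed little from the other nuclei at a log2 ratio of 0.18 (-0.38 to 0.65). Among the 13 adrenergic and natriuretic genes 4 were higher and 2 lower of 12 measurable (Npr3, Adcy5, Prkar2b and Pde3b, against Adrb1 and Pde4d), with a median of 0.24, or 0.91 with genes at 0 set to the floor. Adrb1, the main beta receptor of heart muscle, had 0 UMIs and was at least 3.39-fold lower than in cardiomyocyte-like nuclei.

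Branched-chain amino acid breakdown, a pathway known to be active in fat, was above the other nuclei for 14 of 15 genes. For 3 the difference reached 4-fold, and the median was 1.71. Bcat2, the mitochondrial transaminase that starts it, had 57 UMIs in 38 nuclei (log2 ratio 3.07), Bckdhb 76 in 45 (2.94) and Aldh6a1 48 in 35 (2.26). The phosphatase Ppm1k was the gene below 0, at -0.97 (-3.47 to 0.37) on 3 UMIs.

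No progenitor or matrix gene was 4-fold higher than in all other or in fibroblast-like nuclei. Of 12 genes of fat progenitors 10 were measurable, none was 4-fold higher and 1 was lower (Dpp4, at 0 UMIs), with a median of -0.82 against all other nuclei and -1.65 against fibroblast-like nuclei. Dpp4, which marks interstitial progenitors, was seen in 0 of 71 nuclei, and Pdgfra in 7.04% (1.41% thinned) against 21.8% of fibroblast-like nuclei (12.3% thinned). Of 17 collagen and basement membrane genes none was 4-fold higher and 1 was lower, with a median of -0.35, and against fibroblast-like nuclei 4 were lower, with a median of -0.94. Other classes gave other counts. Of the 17 collagen genes 4 were higher than in endothelial-like nuclei (median 0.87) and 7 higher than in cardiomyocyte-like nuclei (median 1.93), and 3 of the 9 measurable progenitor genes were higher than in cardiomyocyte-like nuclei (median 1.46). Postn, a matrix protein of activated fibroblasts, had 128 CPM against 1521 in fibroblast-like nuclei, and Col3a1 had 760 CPM against 3051. The Col3a1 UMIs were concentrated, with 45.5% of them in 5 nuclei, and fibroblast markers reached at least 3 UMIs in 29 of the 71 nuclei. Their part in these values was not tested. The laminin gene Lama4 was above both fibroblast-like and all other nuclei (459, 247 and 216 CPM).

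The inflammation list showed 1 of 16 measurable genes at least 4-fold higher (Saa3, on 2 UMIs in 1 nucleus) and 2 lower (Ccl2 and Tlr4, both at 0), with a median of -0.020, or 0.39 with genes at 0 set to the floor. Nfkb1 had 10 UMIs and a log2 ratio of -1.35 (-2.48 to -0.54). The complement gene C3 had 61 UMIs in 24 nuclei, of which 54.1% lay in 5 nuclei.

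The 10 lowest genes all had 0 UMIs in adipocyte nuclei. Most of them, among them Myh7b, Myo18b, Mylk3, Rrad, Txlnb and Smyd1, are known from heart muscle, and Cyth4 and Pirb from leukocytes, the cell types that the rule itself disfavoured. Myh7b, at 2603 UMIs in the other nuclei, was at least 13.3-fold lower, and Slc38a3 at least 4.30-fold lower.

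Mesothelial-like nuclei, which like adipocyte and fibroblast-like nuclei were most frequent in MI-NS, had few UMIs of the fat genes named above. Of 1498 genes measurable against them, 207 (13.8%) were higher in adipocyte nuclei and 60 (4.01%) lower. Their 24 nuclei held 0 UMIs of Car3, Slc7a10, Pck1, Cyp2e1, Lgals12 and Cfd, which in a sum of that size allows up to 124 CPM.

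Adipocyte nuclei also varied among themselves, and Nnat was the extreme case. Nnat, an imprinted gene for a small membrane protein that is known from white fat and brain (chr2:157560078-157562522, plus strand), had 193 UMIs in only 15 of 71 nuclei, between 1 and 40 UMIs each with a median of 9. The 5 nuclei with most held 64.8% of its UMIs. Over the 208 genes with at least 60 UMIs that share ranged from 15.2% to 64.8% with a median of 26.1%, and the 5 deepest nuclei held 16.1% of all UMIs. After thinning to 500 UMIs per nucleus, 14 nuclei still had a Nnat UMI. The gene lies inside Blcap, which runs on the other strand and had 20 UMIs in adipocyte nuclei, and the use of strand in the counting is not stated.

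Other fat genes were present both in the 15 nuclei with Nnat and in the 56 without it. Median depth was 1809 and 1540.5 UMIs, and Car3 stood at 5124 and 5909 CPM, Lipe at 2504 and 2384 CPM, and Slc7a10 at 2332 and 1854 CPM. Lctl, a klotho-family protein, was seen in 14 of the 15 nuclei (806 CPM) and in 14 of the 56 (275 CPM). Npr3, the natriuretic peptide clearance receptor, stood at 288 CPM (138 to 529) with Nnat and 50.9 CPM (16.5 to 119) without, and Thrsp at 1238 and 621 CPM. Acsl1 and Lpl were lower with Nnat, at 1353 against 2353 CPM and 518 against 947 CPM. The split was made on a gene seen to be uneven, so these values are a description of 71 nuclei from 1 library.

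Other uneven genes were Meg3, an imprinted noncoding RNA, with 81 UMIs in 21 nuclei and 63.0% in 5 of them, and Fasn, with 100 UMIs in 37 nuclei and 40.0% in 5. Nnat and Meg3 were seen together in 6 nuclei, and Fasn with Acaca in 31.

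**Figure D5:**
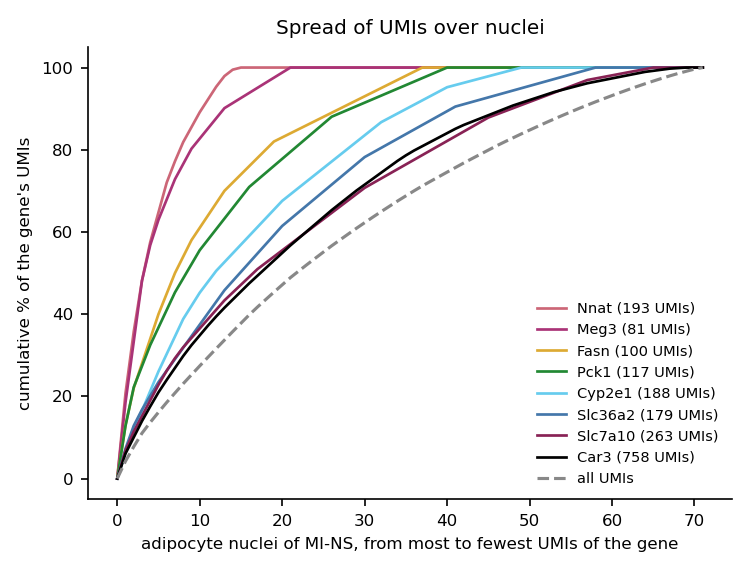
For 8 genes, the cumulative percentage of the gene's UMIs over the 71 adipocyte nuclei of MI-NS, ordered from most to fewest UMIs of that gene; the dashed line gives all UMIs by nucleus depth. The Nnat curve is complete after 15 nuclei, while Car3 UMIs are spread over 69.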

How the data were processed

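The authors deposited 1 matrix of UMI counts per library, made with Cell Ranger 6.0.1 per the file headers; per the submitters' processing notes the build was mm10 and Seurat was used, in a role not stated. Nuclei with at least 300 genes and at most 10% mitochondrial UMIs were kept, and adipocyte nuclei were chosen by the rule given above. Cardiomyocyte-like nuclei had at least 5% cardiomyocyte UMIs. Other classes needed under 3% cardiomyocyte UMIs and at least 3 UMIs from at least 2 of their markers. No other class could have more than 1 UMI for every 3 of theirs, with adipocyte and cardiomyocyte markers not counted. UMIs were summed per class and divided by the class total (CPM). Ratios are on the log2 scale, after 0.5 UMI had been added to either sum, for genes with at least 20 UMIs over both sums, leaving out the rule, exclusion and cardiomyocyte filter genes. The 95% intervals are Poisson (exact) for a level, binomial given the total (exact) for a ratio and Clopper-Pearson for a share. A floor of 3 UMIs gave bounds for genes at 0, and the ratio script was tested on simulated counts. The adipocyte, marker and gene lists (21 lists), and the motifs, were chosen with earlier results of these data known. Named genes were the 20 highest and 10 lowest ratios among genes past 4-fold with at least 20 UMIs in at least 10 nuclei of the higher side, without predicted, mitochondrial, ribosomal, haemoglobin, sex-linked or immunoglobulin genes, plus list members and 12 fat and heart genes; examples in the text were taken from these, and some list members are not reported here. Scrublet in scanpy 1.11.5 called 1 doublet among 7065 MI-NS nuclei and so did not work as a caller; no nucleus was removed and only scores are given. Of the 32285 gene identifiers, 32235 were found in GENCODE vM21 (GRCm38), the source of gene coordinates. Alternatives are listed in the closing section; edgeR 4.0.16 was used for scaling factors only.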

Additional observations from a re-analysis of the deposited data

How the results depend on the processing

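No paired analysis was possible because each group has 1 library. The adipocyte share of MI-NS moved to 1.40% with at least 500 genes and at most 5% mitochondrial UMIs, and to 0.609% with every nucleus thinned to 500 UMIs. The Sham-NS share became 0% with at least 5 rule UMIs, with only Adipoq, Plin1, Cidec and Adrb3, and when thinned; the MI-DAPA share became 0% under the first pair of these and under the stricter gene and mitochondrial limits. From 678 higher genes the count moved to 389 among genes with at least 50 UMIs, 2264 at 2-fold, 1290 in the 29 nuclei with a doublet score at or under the library median and 1406 in the 28 with no Col1a1, Col1a2, Col3a1 or Postn UMI. From 802 lower genes it moved to 308 with 1 UMI added, 2439 at 2-fold, 499 thinned, and 3233 with UMIs added in proportion to the totals. TMM scaling gave 596 higher and 902 lower and shifted the median of all genes from 0.042 to -0.061.

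Each list median was set against the counting interval of the gene or genes in the middle of its list. Over the alternatives 181 values kept their sign within that interval, 9 moved past it and 20 reversed. The interval is wide where the middle genes have few UMIs, so a kept value can still have changed much. Lipid droplet proteins went from 0.37 to 1.65 against nuclei under 3% cardiomyocyte UMIs. Thermogenic fat went from -0.73 to -1.68 with UMIs added in proportion, to -0.32 against nuclei under 3% cardiomyocyte UMIs and to -0.15 thinned. The 9 that moved were lipid droplet proteins (1.74 thinned), lipolysis (4.18 without collagen UMIs), triglyceride synthesis (3.66 against nuclei under 3% cardiomyocyte UMIs), de novo lipogenesis (3.26 at low doublet score), white fat (2.12 without the Nnat nuclei), secreted factors (1.32 without collagen UMIs), insulin signalling (1.73 thinned and 1.88 against nuclei under 3% cardiomyocyte UMIs) and adrenergic signalling (0.71 against the same nuclei). Fatty acid oxidation became 0.52 at low doublet score, 0.40 without collagen UMIs, 0.13 thinned and 0.59 against nuclei under 3% cardiomyocyte UMIs. Inflammation became 0.61 with 1 UMI added, 0.063 with at least 5 rule UMIs, 0.44 at low doublet score and 0.090 without the 15 Nnat nuclei. Glucocorticoid targets became 0.50, 0.032, 1.23 and 0.29 under those settings, and 0.022 with 50 UMIs, 1.15 without collagen UMIs and 1.20 thinned. Sodium transport, on 1 gene, became -0.61 at low doublet score and -0.55 without collagen UMIs. Haemoglobin became -0.068 with 50 UMIs, -0.34 against nuclei under 3% cardiomyocyte UMIs and -0.44 with UMIs added in proportion. Without the 15 Nnat nuclei the log2 ratios of Nnat and Insr were -0.87 and -0.091, the first by construction. The causes of the other changes were not tested. The settings that add UMIs in proportion, leave out the Nnat nuclei or leave out cardiomyocyte nuclei were chosen after seeing the data. The 3 alternatives for levels between libraries were not run, since no such comparison was made.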

Other observations

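Adipocyte nuclei of MI-NS carried clock genes at about the level of other nuclei. Of 16 clock genes none was at least 4-fold higher and 1 was lower, with a median log2 ratio of 0.39, or 0.69 with genes at 0 UMIs set to the floor, against 0.042 over all genes. Nr1d1, the repressor REV-ERBalpha, had 38 UMIs in 25 nuclei (log2 ratio 0.98), while Arntl, the activator BMAL1, had 1 UMI and a ratio of -2.87 (-8.76 to -0.97). Among the 9 glucocorticoid genes the factor Zbtb16 was at least 4-fold higher, with 28 UMIs in 22 nuclei (2.54), and the median was -0.051, or 0.096 with genes at 0 set to the floor. The 4 haemoglobin genes, which mark free blood RNA, held 13 UMIs in all and had a median of 0.27. The sodium-glucose cotransporter genes Slc5a2, the target of dapagliflozin, and Slc5a1 had 0 UMIs in adipocyte nuclei. Neither had enough UMIs to be measurable. Slc5a2 had 11 UMIs in all other MI-NS nuclei, or 1.27 CPM, far below the floor of 22.6 CPM in adipocyte nuclei. No lower level was thus shown for it.

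Slc1a5, a glutamine and neutral amino acid transporter, was picked out after its values had been seen. It had 655 UMIs in 70 of 71 adipocyte nuclei, or 4929 CPM (4558 to 5321) against 265 CPM in all other nuclei and 489 CPM in fibroblast-like nuclei, a log2 ratio of 4.22.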
